A study of Mus musculus with 50 samples.

Results

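The clustered replication-dependent histone genes encode the core histones H2A, H2B, H3 and H4 and the linker histones H1f1 to H1f5. They were taken from the count table by symbol, as every row named H2ac, H2bc, H3c or H4c followed by a number and the 5 linker genes, with at least 10 counts summed over all 50 libraries. This rule gave 49 genes of the 55011 rows: 5 for H1, 12 for H2A, 12 for H2B, 10 for H3 and 10 for H4. A further 7 of the 56 matching symbols fell short of the minimum. H2ac18, H2ac19, H2bc18, H3c13 and H3c14 had no count, and H2ac1 and H2bc1 had 2 counts each. The members just inside the minimum were H2ac14 with 18 counts, H2ac7 with 38 and H2ac21 with 40.

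The libraries measured polyadenylated RNA of sorted mouse T cells, each from 500 to 1000 cells sorted a second time. Of the 16 groups, 6 with 3 libraries each were Treg progenitors from thymus at 5, 12 and 49 days after birth (D5, D12 and D49), sorted as CD4+CD8-CD25-Foxp3+ cells (P2) or CD4+CD8-CD25+Foxp3- cells (P1) from male B6.Cg-Foxp3tm1Kuch/J mice with the genotype label WT. The other 10 groups were CD4+Foxp3GFP+ Treg cells at week 20 from lung, liver, ear skin, visceral adipose tissue (VAT) and spleen of male mice of a B6.129(Cg) background with the allele Foxp3tm3(HBEGF/GFP)Ayr, with a DT-labelled and a PBS-labelled group of 4 libraries each for VAT and of 3 each for the other tissues. In that strain the Foxp3 locus drives a diphtheria toxin receptor fused to GFP. The series describes DTR+ and DTR- littermates injected at 12 weeks of age with diphtheria toxin on 3 consecutive days and rested for 8 to 9 weeks, whereas the sample labels give WT for both arms, so the groups are called here by the arm named in their labels. The labels do not say that replicate libraries came from separate mice, so the p-values measure the spread between libraries, which may be technical.

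Replication-dependent histone genes are transcribed in S phase, when newly made DNA has to be packed into nucleosomes. Their mRNAs are known for ending in a conserved stem-loop, bound by the stem-loop binding protein SLBP, in place of a poly(A) tail, and they are degraded when replication stops. Some members also yield longer polyadenylated transcripts in cells that do not divide. A library made from polyadenylated RNA therefore holds these genes at low levels, and the counts below need not follow the total amount of histone mRNA. Total counts per library ran from 2521078 to 6981037, and the members together held 183 to 2212 of them. Foxp3 lay between 251.0 and 836.5 CPM (read counts scaled to the library total with TMM factors) in P2 libraries, against 4.03 to 18.6 CPM in P1 libraries, and between 135.2 and 516.1 CPM in the peripheral libraries. Il2ra, which encodes CD25, lay between 10.7 and 38.8 CPM in P2 libraries, against 100.4 to 138.5 CPM in P1 libraries.

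The stem-loop marks the end of the processed message, and the sequence past it shows which members have a longer annotated transcript. A search of the GENCODE transcripts found the stem-loop pattern in 34 of the 48 kept members with a matched gene, or 70.8%, against 70 of 21951 protein-coding genes, or 0.319%. Some members without a match have annotated transcripts shorter than their RefSeq genes. Examples are H2bc13, with 381 against 473 bases, and H3c10, with 411 against 488 bases. A missing match therefore does not show that a gene lacks the stem-loop. The pattern is a pyrimidine-rich arm, a short T-rich loop and a purine-rich arm. The forms of the members described most closely below follow, written as DNA of the coding strand with the 6-base stem arms in capitals and the 4-base loop in lower case.
H2bc11, H2ac11, H2ac4, H1f2 and H1f4: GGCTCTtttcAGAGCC
H2bc12, H2bc3 and H3c3: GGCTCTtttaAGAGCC
H4c9 and H4c14: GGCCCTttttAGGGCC
H4c4 and H4c3: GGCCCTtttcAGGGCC
The H4 genes shown share one stem and the other members another, and the loops differ within both sets. The transcript annotated for H2bc11 and for H2ac11 ran 23 bases past the stem-loop, that of H2ac4 11 bases and that of H3c3 74 bases. It ran 330 bases past it for H4c9, 770 for H4c4, 840 for H1f2, 1153 for H1f4 and 1257 for H4c14. H2bc21 and H2bc4, with longest transcripts of 2620 and 1156 bases, held no match.

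Of the 49 members 44 lie on chromosome 13 between 21715711 and 23764412 and 5 lie on chromosome 3 between 96219885 and 96263317 (GRCm38). Among those with a GENCODE gene were 8 divergent pairs of an H2A and an H2B gene whose starts lie 163 to 248 bases apart. H2ac14, which has no such gene, had no strand to use and could not be paired. H4c9 lies at chr13:22040960-22041362 on the minus strand, H2bc11 at chr13:22043198-22043658 on the plus strand, H2ac11 at chr13:22042478-22042949 on the minus strand and H3c3 at chr13:23745042-23745521 on the minus strand. H1f2 lies at chr13:23738807-23739531, H2bc4 at chr13:23684199-23692480 and H2bc21 at chr3:96221072-96223738, all on the plus strand. The bases upstream of 3 members are shown because H2bc11 shares its upstream region with H2ac11, the pair with the highest summed level in D5 P1, H2bc12 carries an octamer, and H4c9 had the highest mean level over all libraries. They are RefSeq promoter sequences of build GRCm38.p6, from 250 bases before the start, on the strand of the gene, with every match of the octamer, CCAAT and TATAAA motifs on either strand in capitals.
H2bc11, chr13:22042948-22043197, plus strand: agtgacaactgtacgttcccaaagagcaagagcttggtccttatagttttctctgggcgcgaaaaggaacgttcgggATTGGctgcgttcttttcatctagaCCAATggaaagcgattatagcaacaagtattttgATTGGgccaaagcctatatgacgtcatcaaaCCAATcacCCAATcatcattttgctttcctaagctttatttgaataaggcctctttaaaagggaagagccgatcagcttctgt
H2bc12, chr13:22035571-22035820, plus strand: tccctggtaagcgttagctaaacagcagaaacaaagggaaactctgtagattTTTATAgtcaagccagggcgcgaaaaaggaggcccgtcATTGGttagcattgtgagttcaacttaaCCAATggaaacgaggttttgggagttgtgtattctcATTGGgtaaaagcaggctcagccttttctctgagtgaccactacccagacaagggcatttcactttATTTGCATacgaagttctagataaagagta
H4c9, chr13:22041363-22041612, minus strand: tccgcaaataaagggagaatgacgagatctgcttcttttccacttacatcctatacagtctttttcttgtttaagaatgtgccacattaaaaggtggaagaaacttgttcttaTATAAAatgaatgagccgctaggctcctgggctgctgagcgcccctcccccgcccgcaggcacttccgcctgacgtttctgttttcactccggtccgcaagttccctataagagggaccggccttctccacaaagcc
Over windows of 300 bases, which add 50 bases after the start, 43 members could be matched to a promoter. The octamer ATTTGCAT, the site known for Oct1 at H2B genes, occurred in 10 of them or 23.3%, against 570 of 32851 promoters or 1.74%. All 10 were H2A or H2B genes: H2ac4, H2ac6, H2ac8, H2ac12, H2ac20, H2bc3, H2bc6, H2bc8, H2bc12 and H2bc14. Genes of a divergent pair share upstream bases, so a site can count for both, and the 10 need not be separate sites. H2ac8 with H2bc8 and H2ac12 with H2bc12 are such pairs. CCAAT occurred in 37 of 43 members, against 37.4% of all promoters, and TATAAA in 27 of 43, against 13.6%. The H4 windows held CCAAT in 3 of 9.

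The members' summed level was lower at each later age in both progenitors, and its mean was lower in P2 than in P1 at each age (the sums were not tested). In P2 it averaged 199.6 ± 7.48 CPM at D5, 107.5 ± 20.1 at D12 and 67.6 ± 17.0 at D49 (SD, n = 3 each). In P1 it averaged 346.2 ± 19.3 CPM at D5, 159.0 ± 9.81 at D12 and 76.0 ± 10.3 at D49. The D49 mean was 33.9% of the D5 mean in P2 and 22.0% of it in P1, and the libraries of D49 and D5 did not overlap in either progenitor. The P2 mean was 57.7% of the P1 mean at D5, 67.6% at D12 and 89.0% at D49, where the P2 range of 52.4 to 85.9 CPM overlapped the P1 range of 67.4 to 87.4 CPM. In bulk libraries, fewer cells in S phase and less histone RNA per cell cannot be told apart.

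**Figure D1:**
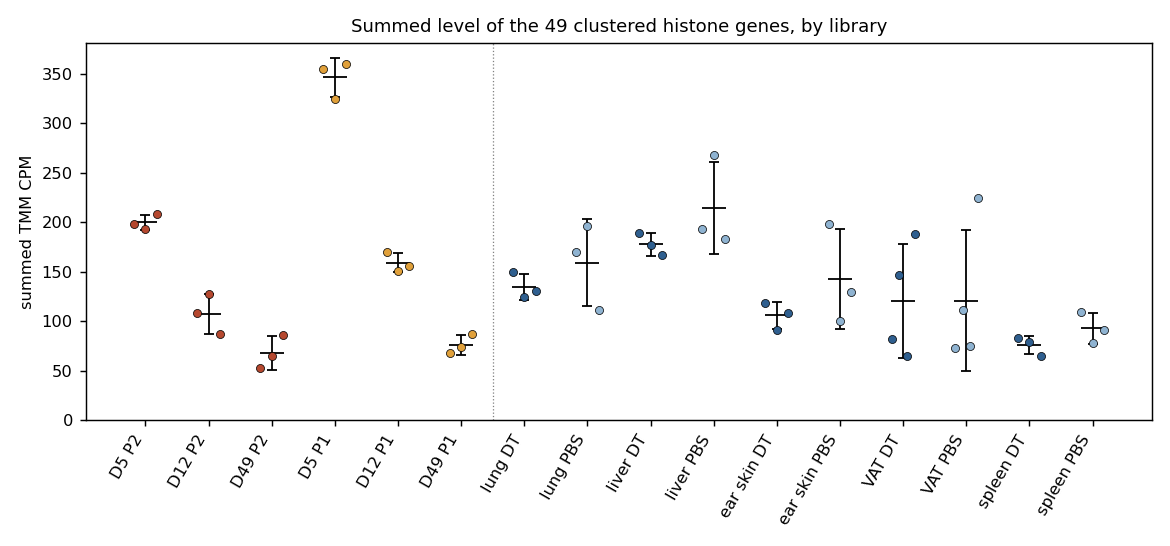
Summed level of the 49 histone genes in TMM-scaled CPM on a linear axis, with 1 point per library and the mean and SD of each group as bars, thymic progenitors on the left and peripheral Treg cells on the right. The D5 P1 libraries lie highest, between 324.1 and 359.8 CPM, and the D49 P2 and D49 P1 libraries lie below 88 CPM.

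Between 5 and 49 days, P1 progenitors lost histone transcripts of all 5 types. Of 34 members that passed the filter on low counts in thymus, 20 were lower at D49 and none was higher (edgeR quasi-likelihood test, Benjamini-Hochberg adjusted p under 0.05 over all genes), where 6.50% of all 14696 genes tested were called lower and 4.06% higher. The median log2 fold change of the tested members was -2.53, and that of all genes was 0. All 6 tested H4 genes fell, as did 5 of 8 for H2A, 4 of 6 for H3, 3 of 9 for H2B and 2 of 5 for H1. A member could pass the filter through a single group, so these counts partly rest on members that were high in D5 P1 alone. H4c2 is such a case, with 2.34, 3.13 and 3.09 CPM in D5 P1 and at most 1.38 CPM in any other thymic library. H4c1, H4c6, H4c11 and H4c12 did not pass the filter. Leaving out any single library left 16 to 19 members lower.

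H4 joins H3 in the tetramer at the centre of the nucleosome, and H4c9 had the highest mean level of all members. In P1 it had 32.8, 45.04 and 41.6 CPM at D5, 17.8, 16.1 and 18.3 CPM at D12 and 8.71, 7.06 and 10.2 CPM at D49. The 3 ages did not overlap. The log2 fold change was -2.20 (SE 0.22, adjusted p = 5.29e-07) for D49 against D5, with steps of -1.07 (SE 0.20, adjusted p = 0.00218) to D12 and -1.13 (SE 0.22, adjusted p = 0.0014) from D12 to D49. H4c4 had 5.499, 5.69 and 2.78 CPM at D49, against 25.2, 20.8 and 22.9 CPM at D5, with no overlap, and fell by 2.32 on the log2 scale (SE 0.45, adjusted p = 0.00129). H4c14, one of the 5 members on chromosome 3, had 2.29, 3.87 and 6.08 CPM at D49, against 22.3, 14.3 and 18.7 CPM at D5. It fell by 2.16 (SE 0.45, adjusted p = 0.00261), and its libraries did not overlap.

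H2A and H2B are added to the nucleosome as dimers, and the adjacent genes H2ac11 and H2bc11 had similar levels. H2bc11 had 25.6, 26.3 and 25.2 CPM in D5 P1, 9.77, 10.3 and 8.65 CPM in D12 P1 and 1.60, 2.50 and 2.26 CPM in D49 P1. H2ac11 had 20.7, 21.3 and 23.9 CPM in D5 P1, 10.8, 9.19 and 7.80 CPM in D12 P1 and 2.75, 0.683 and 2.95 CPM in D49 P1. Neither gene overlapped between ages. From D5 to D49, H2bc11 fell by 3.59 (SE 0.56, adjusted p = 0.000146) and H2ac11 by 3.35 (SE 0.44, adjusted p = 2.15e-05). Members of a pair did not always move together. In the pair on chromosome 3, H2ac20 averaged 0.919 CPM in D49 P1 and 2.19 CPM in D5 P1, while H2bc21 averaged 14.7 and 14.2 CPM. Since near-identical copies can share reads, the split between copies is uncertain: 40.6% of the 50-base windows of H2bc11 and 21.1% of those of H2ac11 occur in no other annotated gene, against 71.1% for H4c9, 89.8% for H4c4 and 99.0% for H4c14.

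H3c3, which had the highest mean level of the H3 genes, had 24.0, 18.2 and 21.6 CPM in D5 P1, 4.11, 3.36 and 3.59 CPM in D12 P1 and 1.37, 0.455 and 2.95 CPM in D49 P1. It fell by 3.69 from D5 to D49 (SE 0.54, adjusted p = 0.000117), and most of that fall was present at D12 (-2.40, SE 0.50, adjusted p = 0.0046). The ages did not overlap. H2ac4, the H2A gene with the highest mean level, had 0.229, 2.505 and 4.17 CPM at D49, against 15.6, 11.8 and 13.8 CPM at D5, and fell by 2.55 (SE 0.62, adjusted p = 0.00899). H1 genes bind the linker DNA between nucleosomes. H1f5 fell by 3.17 (SE 0.62, adjusted p = 0.00156) and H1f4 by 1.76 (SE 0.55, adjusted p = 0.0442), the call for H1f4 being lost when any single library was left out (adjusted p 0.0603 to 0.179). The other 3 H1 genes did not pass the test, H1f2 having 5.27, 2.96 and 2.43 CPM at D49, against 5.47, 4.04 and 5.53 CPM at D5. H2bc21 did not pass it either and had 14.2, 13.9 and 15.98 CPM at D49, against 12.3, 14.7 and 15.5 CPM at D5.

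**Figure D2:**
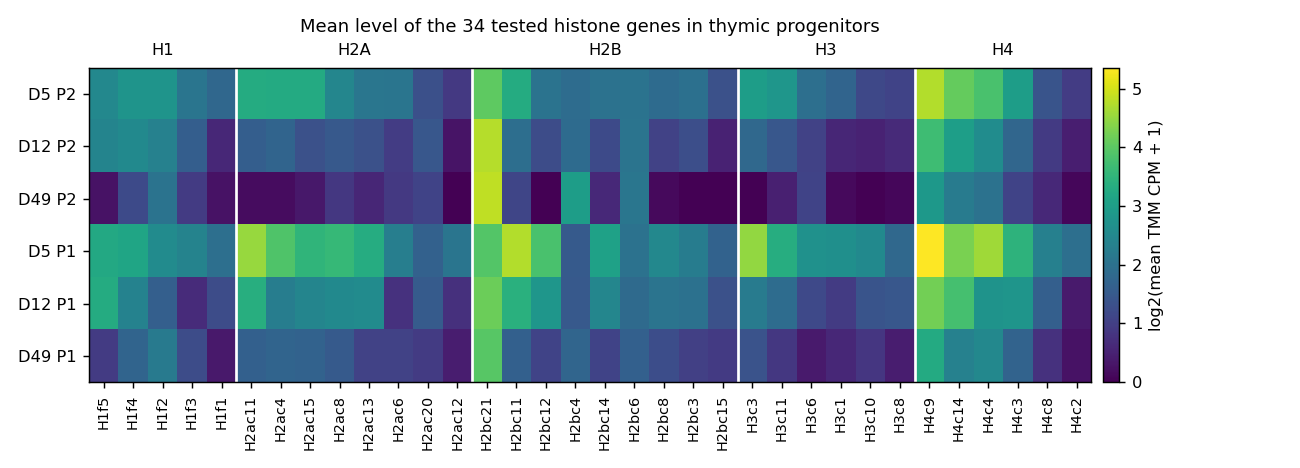
Mean level of the 34 members tested in thymus, in columns grouped by histone type, with the 6 progenitor groups in rows and colour for the log2 of mean CPM plus 1 (yellow high, dark blue low). Most columns are lightest at D5 and darkest at D49 in both progenitors, and H2bc21 keeps a similar colour in P1, with means between 14.2 and 16.9 CPM.

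The single steps called fewer members. Between D5 and D12 in P1, 6 members fell and none rose, where 8.16% of all genes were called lower and 10.1% higher: H3c3, H4c4, H4c9, H2ac4, H1f3 and H3c1. Leaving out any 1 of the 6 libraries left 3 calls, H3c3, H4c4 and H4c9. Those fits called 1026 to 1771 of all genes, against 2689, and the median log2 fold change of the members was -0.97 to -1.11. Between D12 and D49 in P1, 10 members fell and none rose, with 13.5% of all genes lower and 10.2% higher. Without D49 P1 replicate 1, 5 members and 1944 of 16656 genes were called. The D12 P1 libraries stood apart from the others in P1. Their summed level of 1999 olfactory and vomeronasal receptor genes, known from sensory neurons, was 1126 to 2763 CPM, against 91.9 to 136.8 CPM in D5 P1 and 249.7 to 363.0 CPM in D49 P1. With that sum as a covariate neither step called a member, and 1 and 85 of all 14696 genes were called, against 2689 and 3486 without it. The sum set D12 P1 apart from both other ages, so that fit can hardly separate the covariate from the age. The median log2 fold change of the members was then -1.54 for D12 against D5 and -0.86 for D49 against D12, against -1.02 and -1.21 without it.

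P2 progenitors lost histone transcripts with age as well, and 6 tested members had no count at D49. Of 34 members tested, 22 were lower at D49 than at D5 and 1 was higher, where 11.1% of all genes were called lower and 14.7% higher. The median log2 fold change was -2.51, or -2.34 with the 6 members at 0 set to their bound, against 0.08 over all genes. Lower calls covered 6 of 9 H2B genes, 5 of 8 for H2A, 4 of 6 for H3, 4 of 6 for H4 and 3 of 5 for H1. Leaving out any single library left 20 to 24 calls. Of the 49 members, 20 to 28 had a count in each D49 P2 library, against 46 to 48 in each D5 P2 library.

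H4c9 had 25.4, 27.4 and 23.7 CPM in D5 P2, 12.3, 12.6 and 10.7 CPM in D12 P2 and 6.59, 5.92 and 6.24 CPM in D49 P2. The ages did not overlap. It fell by 1.89 from D5 to D49 (SE 0.23, adjusted p = 3.94e-06). H2ac11 had 0, 0 and 0.403 CPM in D49 P2, against 8.67, 7.82 and 9.89 CPM in D5 P2, and fell by 5.39 (SE 0.66, adjusted p = 5.36e-06). Its neighbour H2bc11 had 0, 0.296 and 3.22 CPM in D49 P2, against 9.50, 11.3 and 5.54 CPM in D5 P2, and fell by 2.52 (SE 0.60, adjusted p = 0.00535). Neither gene overlapped between these ages.

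The stem-loop forms printed above for H3c3, H2bc12 and H2bc3 belong to members with no count in any D49 P2 library. H3c3 had 0 CPM in all 3 at D49, against 10.1, 3.68 and 6.73 CPM at D5, so that D49 was at least 27.0-fold lower against a floor of 3 counts over the group. By the same floor H2bc12 was at least 12.2-fold lower, H2bc3 at least 11.7-fold, H2bc15 at least 5.92-fold and H3c10 at least 4.85-fold, each with an adjusted p from 3e-05 to 0.0225. The sixth, H2ac12, was at least 3.34-fold lower and did not pass the test (adjusted p = 0.051).

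H4c4 had 3.72, 1.18 and 4.23 CPM in D49 P2, against 12.6, 11.7 and 14.8 CPM in D5 P2, and fell by 1.93 (SE 0.47, adjusted p = 0.00616). H4c14 had 2.29, 1.18 and 7.65 CPM in D49 P2, against 14.4, 14.5 and 19.4 CPM in D5 P2, and fell by 1.88 (SE 0.46, adjusted p = 0.00633). Neither gene overlapped between these ages. Without both D49 P2 replicates 2 and 3, which leaves 1 library in that group, H4c4 had a log2 fold change of -1.83 (adjusted p = 0.0679). H2ac4 fell by 5.37 (SE 0.90, adjusted p = 0.000221), with 0, 0 and 0.403 CPM in D49 P2, against 13.2, 6.90 and 5.74 CPM in D5 P2. H1f4 fell by 1.93 (SE 0.59, adjusted p = 0.0227), a call lost without D5 P2 replicate 1 or 2 or D49 P2 replicate 1 or 2 (adjusted p 0.0532 to 0.0776).

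H2bc21, an H2B gene whose 50-base windows are all its own, was the member that rose. It had 14.04, 15.4 and 16.2 CPM in D5 P2, 30.0, 28.2 and 20.1 CPM in D12 P2 and 18.3, 31.1 and 33.4 CPM in D49 P2. The D49 libraries lay above all D5 libraries and overlapped those of D12, and the log2 fold change of D49 against D5 was 1.02 (SE 0.26, adjusted p = 0.00794). D49 P2 replicates 2 and 3 had 2821 and 3345 CPM of receptor genes, replicate 1 had 625.6 CPM and the D5 P2 libraries 182.4 to 209.9 CPM. The 8 macrophage and monocyte markers summed to 22.9 to 106.7 CPM in D49 P2, against 2.06 to 8.90 CPM in D5 P2. Of them 6 were detected in every D49 P2 library, and Cd14 was at 0 in all. Without those 2 replicates D49 P2 holds 1 library, which is assumed to vary like the other groups, and the H2bc21 log2 fold change was 0.25 (adjusted p = 0.754). With the receptor sum as a covariate it was -0.10 (adjusted p = 0.948). The same settings called 17 and 6 members, all lower, and 1734 of 17825 and 415 of 14696 genes, against 3788 of 14696 in the fit with all libraries and no covariate. H4c9 remained called in both. H2bc4 had 8.02, 7.11 and 5.64 CPM in D49 P2 and 1.03, 2.3 and 4.75 CPM in D5 P2, and did not pass the test.

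**Figure D3:**
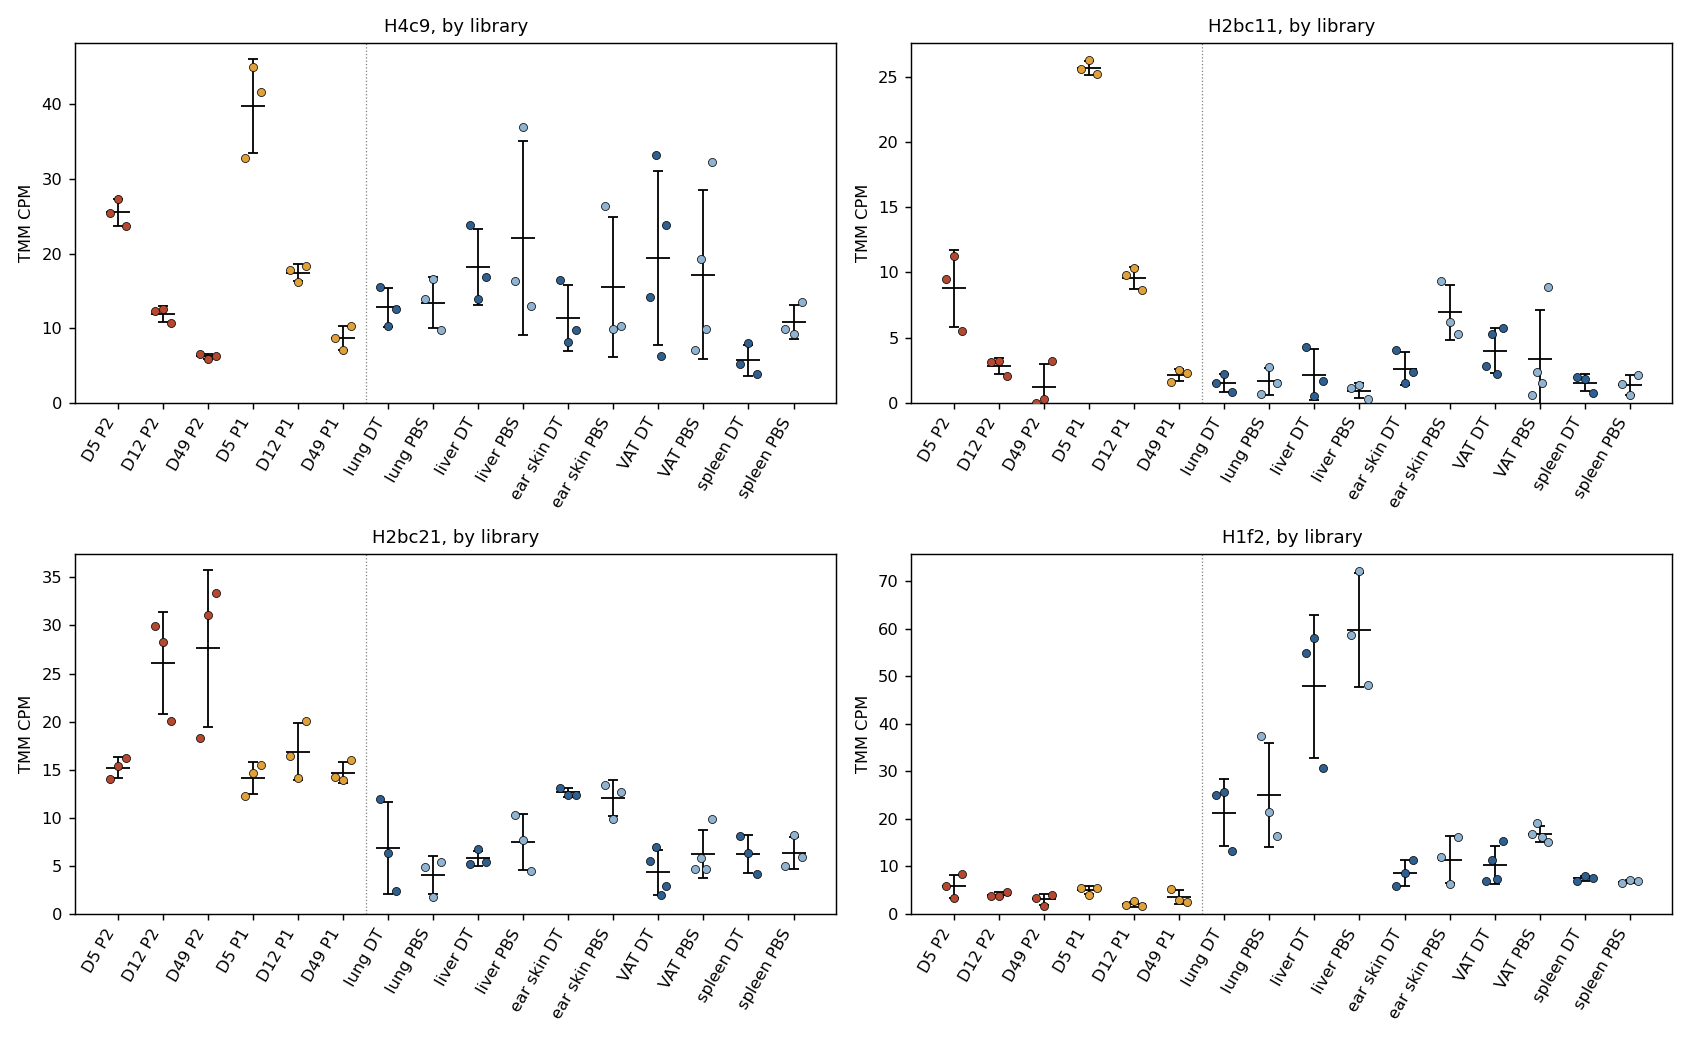
Level of H4c9, H2bc11, H2bc21 and H1f2 in TMM-scaled CPM on linear axes, with 1 point per library and bars for the mean and SD of each group. H4c9 and H2bc11 step down with age in both progenitors, H2bc21 lies at 18.3 to 33.4 CPM in D49 P2, and H1f2 lies highest in liver.

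The steps in P2 called 4 members lower at D12 than at D5 and none higher, where 3.35% of all genes were lower and 1.81% higher. They were H4c9 (-1.14, SE 0.21, adjusted p = 0.00175), H2ac11, H2ac15 and H4c3, and 2 remained in number without D5 P2 replicate 3 or without D12 P2 replicate 3. Between D12 and D49, 8 members fell and none rose, with 5.97% of all genes lower and 9.02% higher. That count was 5 without D12 P2 replicate 1 or 2, 1 without both D49 P2 replicates 2 and 3, where D49 P2 is 1 library and 522 of 17825 genes were called, and 0 with the receptor sum as a covariate, where 53 of 14696 genes were called, against 2202 without it. The log2 fold change of H4c9 was -0.74 (SE 0.23, adjusted p = 0.0378) in the fit with all libraries, and in these settings it was -0.83 (adjusted p = 0.306) and -0.96 (adjusted p = 0.546).

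The members that fell from D5 to D49 were largely shared. Of the 20 lower in P1 and the 22 lower in P2, 17 were in both lists, which is 85.0% of the first and 77.3% of the second. H3c6, H4c2 and H4c8 were called in P1 alone and H1f1, H2bc3, H2bc8, H2bc15 and H3c10 in P2 alone. The change with age itself was not shown to differ for any of them. The test of the difference between the P2 and the P1 change called none of the 34 members (edgeR, and none by DESeq2), 10 had an unadjusted p under 0.05, and 0.374% of all genes were called. Without D49 P2 replicate 1 that test called 1 member. The lowest p was that of H2bc3 (adjusted p = 0.134).

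**Figure D4:**
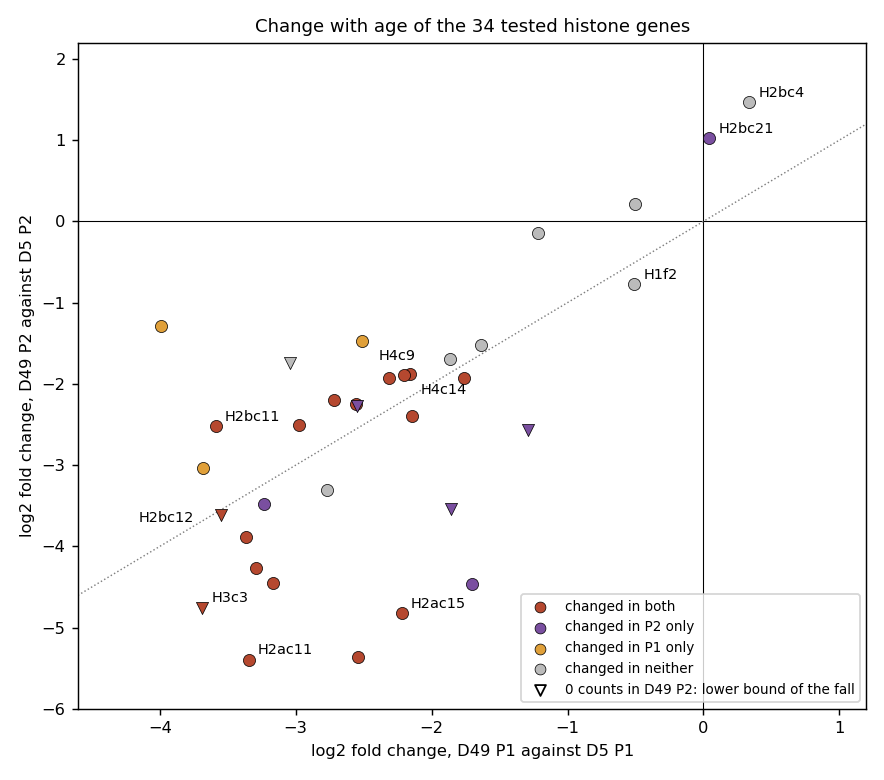
Log2 fold change of D49 against D5 in P2 (vertical) and in P1 (horizontal) for the 34 members tested, coloured by the progenitor in which the change passed the test; the dotted line marks equal change. Triangles are members with no count in D49 P2, drawn at the smallest fall that 3 counts over the group would give, and the test of the difference between the axes called no member.

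More members were called lower than higher in P2 than in P1 progenitors at each age, while the summed levels overlapped at D49. At D5, 5 of the 34 members were lower in P2 and none was higher, where 8.40% of all genes were lower and 6.79% higher. H2bc12 had 2.89, 3.45 and 2.97 CPM in D5 P2, against 11.7, 13.4 and 14.3 CPM in D5 P1, with a log2 fold change of -2.04 (SE 0.43, adjusted p = 0.00248). H3c3 (-1.60, SE 0.48, adjusted p = 0.0288), H2bc11 (-1.52, SE 0.49, adjusted p = 0.041), H2ac11 (-1.28, SE 0.39, adjusted p = 0.0301) and H4c9 (-0.61, SE 0.20, adjusted p = 0.0438) were the others. None of the 5 overlapped between P2 and P1, as was so for 19 of the 34 members and 40.2% of all genes tested. Leaving out any 1 of the 6 libraries left 1 or 2 calls, and H4c9, H2bc11 and H2ac11 were lost each time. Of all genes 1525 to 1602 were called in those fits, against 2232 with all libraries.

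At D12, 9 members were lower in P2 and none was higher, with 23.8% of all genes lower and 17.6% higher, so the share of 26.5% was near that of all genes. H2ac11 had 2.46, 1.71 and 1.88 CPM in D12 P2, against 10.8, 9.19 and 7.80 CPM in D12 P1 (-2.32, SE 0.45, adjusted p = 0.000396). Receptor genes summed to 185.2 to 294.5 CPM in D12 P2, against 1126 to 2763 CPM in D12 P1, and with that sum as a covariate no member was called, with a median log2 fold change of -0.67, against -1.06 without it, and 1153 of all genes called, against 6085. The count was 4 without D12 P1 replicate 3, 5 without D12 P2 replicate 1 and 3 without D12 P2 replicate 3, where 5154, 4630 and 4717 genes were called. At D49, 9 members were lower in P2 and 2 were higher, with 12.9% of all genes lower and 16.6% higher, and 7 were called without D49 P1 replicate 3. Of those lower, H2bc12, H2bc15, H2bc3, H3c10 and H3c3 had no count in D49 P2 and means of 0.804 to 1.59 CPM in D49 P1. They passed the filter through other thymic groups. A fit of the compared libraries alone called no member and 1210 of 11708 genes. The median log2 fold change of its members was 0.15, against -0.84 in the reported fit. Those higher were H2bc21 (1.12, SE 0.26, adjusted p = 0.00354) and H2bc4, which had 8.02, 7.11 and 5.64 CPM in D49 P2, against 2.98, 1.14 and 2.95 CPM in D49 P1 (1.71, SE 0.64, adjusted p = 0.0486). Without D49 P2 replicates 2 and 3, where D49 P2 is 1 library, 2 members were called, both lower, among 2297 of 17825 genes, against 4341 of 14696 with them. H2bc21 then differed by 0.34 (adjusted p = 0.614).

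Members with long annotated transcripts made up a growing share of the histone counts with age. A cut at 1000 bases, set after the values were seen, put 13 members in a long class and 35 in a short class, and H2ac14 had no annotated transcript. The long class held 36.1% ± 2.38 of the summed CPM in D5 P2, 53.9% ± 3.66 in D12 P2 and 76.0% ± 1.90 in D49 P2 (SD, n = 3 each). In P1 it held 25.5% ± 2.68 at D5, 31.0% ± 0.694 at D12 and 50.2% ± 4.98 at D49. The D49 and D5 ranges did not overlap in either progenitor. The short class summed to 38.2 CPM in D49 P1, against 257.7 CPM in D5 P1, and the long class to 37.8 CPM in D49 P1, against 88.5 CPM in D5 P1. In P2 the short class summed to 16.4 CPM at D49, against 127.0 CPM at D5, and the long class to 51.2 CPM, against 72.3 CPM.

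By test, 17 of 25 short members and 3 of 9 long members were lower in D49 P1 than in D5 P1, with median log2 fold changes of -2.77 and -1.64. In P2, 19 of 25 short members and 3 of 9 long members were lower at D49, and 1 long member, H2bc21, was higher. At D5 all 5 members lower in P2 than in P1 were short, with a median of -1.10 over the 25 short and -0.16 over the 9 long members. H2B took 59.1% of the summed CPM in D49 P2, against 22.9% in D5 P2, with H2bc21 alone at 27.6 ± 8.12 CPM (SD, n = 3) of a summed 67.6 CPM in D49 P2. Divided by the length of the longest transcript, the levels in D5 P1 were 55.5 CPM per kilobase for H2bc11, 54.8 for H4c9, 45.3 for H2ac11, 33.8 for H3c3 and 29.1 for H2ac4.

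**Figure D5:**
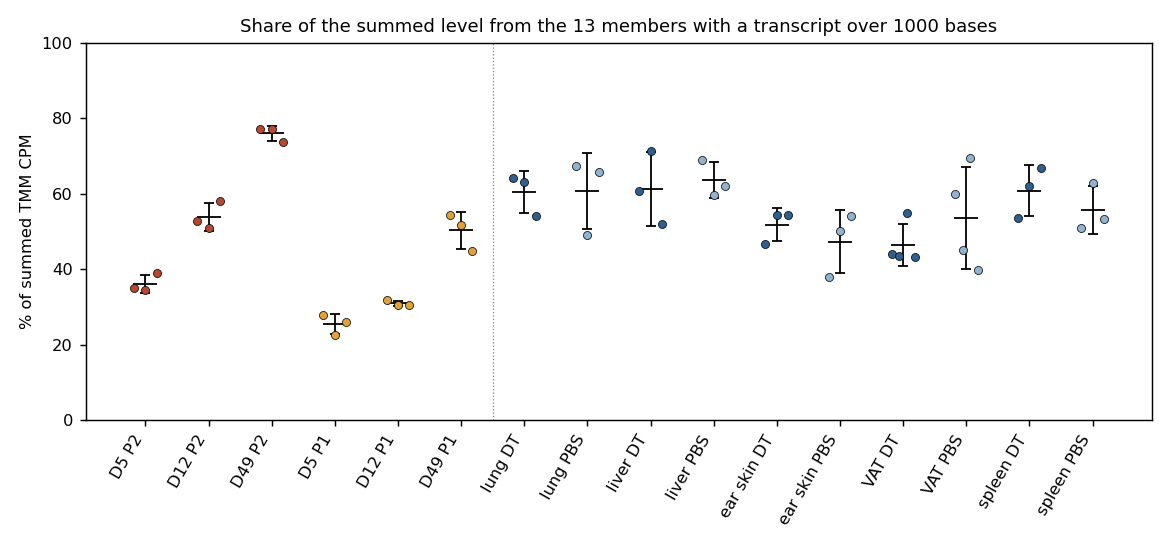
Share of the members' summed CPM held by the 13 members whose longest transcript exceeds 1000 bases, in percent, with 1 point per library and the mean and SD of each group. The share climbs with age to 73.8% to 77.1% in D49 P2 and to 44.7% to 54.4% in D49 P1, and the peripheral group means lie between 46.4% and 63.5%.

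Genes of the histone pathway and of the cell cycle were counted in the same comparisons, from lists drawn up with earlier results of these data known. Of 25 S phase genes, 24 were lower in D49 P1 than in D5 P1 and 23 in D49 P2 than in D5 P2, and all 18 mitosis genes were lower in both. In D49 P2 against D5 P2, the ribonucleotide reductase subunits Rrm2 and Rrm1 fell by 4.203 and 2.303. Uhrf1 and Mcm5, also of the S phase list, fell there by 4.35 and 1.96, and the mitotic genes Birc5, Bub1b, Top2a and Cenpf by 4.02, 3.80, 3.59 and 3.32. Mki67, a marker of cycling cells, fell by 3.17 in P2 (SE 0.33, adjusted p = 5.54e-07) and by 2.66 in P1 (SE 0.31, adjusted p = 4.37e-06). The S phase list summed to 964.7 ± 45.6 CPM in D49 P2, against 3609 ± 83.8 CPM in D5 P2, and to 2452 ± 150.0 CPM in D49 P1, against 7112 ± 246.1 CPM in D5 P1 (SD, n = 3 each).

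At D5 the list counts differed between S phase and mitosis. Of the 25 S phase genes 21 were lower in P2 than in P1, with a median log2 fold change of -0.88, and none of the 18 mitosis genes passed the test, with a median of -0.38.

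Of 20 genes for histone mRNA transcription and end processing, 8 were lower and none was higher in D49 P2 than in D5 P2, and 5 were lower and none higher in P1. Slbp, the binding protein of the stem-loop, fell by 0.87 in P2 (SE 0.20, adjusted p = 0.00422) and by 1.19 in P1 (SE 0.20, adjusted p = 0.000302). Its levels were 57.8, 38.8 and 80.1 CPM in D49 P2, against 113.3, 116.2 and 129.8 CPM in D5 P2, and the ages did not overlap. Ccne1 and Ccne2, which encode the cyclin E partners of Cdk2, fell by 2.57 and 2.69 in P2, and Srrt and Ncbp1, of the cap-binding machinery, by 1.16 and 0.68. Npat, the coactivator that binds histone gene clusters, did not pass the test, with log2 fold changes of 0.35 in P2 (adjusted p = 0.257) and -0.58 in P1 (adjusted p = 0.0958).

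Of 20 histone chaperones and assembly factors, 13 were lower in P2 and 12 in P1 at D49, with none higher. In P2, Asf1b fell by 3.09, Chaf1a, a subunit of the assembly factor CAF-1, by 2.39, Anp32e, a chaperone that removes H2A.Z, by 2.04 and Nap1l1 by 1.74. Of 9 tested histone variant genes outside the member rule, 7 were lower in P2 and 6 in P1, with none higher. H1f0, a linker histone known for polyadenylated transcripts, fell by 3.88 in P2 and by 2.44 in P1, H2ax by 2.54 and 1.72, H2az1 by 0.99 and 1.37 and Cenpa, the centromeric H3, by 1.59 and 2.02. Of the genes for histone H3.3, H3f3a fell in P2 by 0.53 (adjusted p = 0.00117) and had a log2 fold change of -0.21 in P1 (adjusted p = 0.216), while H3f3b fell in P1 by 0.59 (adjusted p = 0.00881) and had one of -0.13 in P2 (adjusted p = 0.539).

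Over the 18 thymic libraries, the 10 genes outside the family whose log2 level was most like that of the summed members were Hmgn2 (Pearson r 0.970), Selenoh (0.968), Knl1 (0.958), Fbln1 (0.956), Cenpw (0.954), Hmmr (0.953), Nuf2 (0.950), Tacc3 (0.949), Cdca8 (0.949) and Cdk1 (0.948). The ranking covered the 8793 other genes averaging 10 CPM or more. The libraries share 2 progenitors and 3 ages, so the coefficients describe the pattern only.

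In week 20 Treg cells every lung and liver library of the PBS-labelled arm had a higher summed level than every spleen library (the sums were not tested), and the linker gene H1f2 was called in 3 of 4 tissues. PBS-labelled libraries summed to 158.9 ± 43.8 CPM in lung, 214.6 ± 46.5 in liver, 142.5 ± 50.5 in ear skin and 120.5 ± 71.4 in VAT, against 92.5 ± 15.9 CPM in spleen (SD, n = 4 in VAT and 3 in each other tissue). The VAT range of 72.4 to 224.4 CPM and the ear skin range of 100.03 to 198.3 CPM overlapped the spleen range of 77.7 to 109.3 CPM. The lung range of 110.7 to 196.1 CPM and the liver range of 183.2 to 268.1 CPM did not. The gap between lung and spleen was narrow. The lowest lung library held 16.5 CPM of H1f2 in its sum, against 6.47 CPM in the highest spleen library. Few single members passed the test. Of 30 members that passed the peripheral filter, 2 were higher in lung, 2 in liver, 3 in ear skin and 1 in VAT than in spleen, where 8.14%, 9.15%, 11.1% and 8.67% of all 17731 genes were called higher. No member was called lower in any of the 4 tissues, where 7.79%, 7.85%, 12.5% and 6.27% of all genes were. The share of members called higher was thus below that of all genes in each tissue, at 6.67% in lung and liver, 3 of 30 in ear skin and 3.33% in VAT.

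H1f2, the member with the second highest mean level over all libraries, had 58.7, 72.2 and 48.2 CPM in liver, against 6.47, 7.05 and 6.86 CPM in spleen of the PBS-labelled groups. It rose by 3.17 (SE 0.36, adjusted p = 6.19e-08), and the tissues did not overlap. In lung it had 37.3, 21.4 and 16.5 CPM and rose by 1.93 over spleen (SE 0.36, adjusted p = 0.00017). VAT libraries had 16.8, 19.0, 16.3 and 15.1 CPM, also above every spleen library, with a rise of 1.33 (SE 0.34, adjusted p = 0.00496). Ear skin libraries had 11.9, 6.22 and 16.2 CPM, overlapping those of spleen, and H1f2 did not pass the test there. Its calls in liver, lung and VAT were kept without any single library. In the DT-labelled libraries, a comparison added after the values were seen, 1 member was higher than in spleen in lung, 4 in liver, 1 in ear skin and 1 in VAT, where 8.48%, 8.18%, 10.5% and 5.70% of all genes were, and 1 was lower, in ear skin, where 6.15%, 5.08%, 11.6% and 3.15% of all genes were in the same order of tissues. There H1f2 was higher than in spleen by 2.71 in liver (SE 0.36, adjusted p = 1.01e-06) and by 1.54 in lung (SE 0.35, adjusted p = 0.00229), while in VAT it differed by 0.49 (adjusted p = 0.466). H1 genes held 40.0% ± 3.19 of the summed CPM in PBS-labelled liver, against 17.9% ± 6.88 in PBS-labelled spleen (SD, n = 3 each). In D5 P1 they held 8.14% ± 0.911, with H1f2 at 4.04 to 5.53 CPM.

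H2bc4 had 15.6, 25.2 and 7.48 CPM in liver, against 4.37, 3.13 and 4.49 CPM in spleen, and rose by 2.05 (SE 0.47, adjusted p = 0.00221). In ear skin it had 11.6, 9.89 and 8.21 CPM and rose by 1.44 (SE 0.47, adjusted p = 0.0251). Neither tissue overlapped spleen, and the DT-labelled libraries gave 2.24 in liver (adjusted p = 0.00149) and 1.55 in ear skin (adjusted p = 0.0228). The liver call was lost without PBS-labelled liver replicate 2 (1.503, adjusted p = 0.0522).

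The other calls against spleen were H4c4 in lung (1.35, SE 0.47, adjusted p = 0.0441) and H2bc11 (2.44, SE 0.81, adjusted p = 0.0265) and H3c3 (3.29, SE 1.15, adjusted p = 0.0359) in ear skin. H4c4 had 13.2, 19.9 and 9.53 CPM in lung, against 4.69, 6.07 and 6.39 CPM in spleen, and was lost when any single library other than lung replicate 3 was left out. H2bc11 had 9.31, 6.22 and 5.30 CPM in ear skin, against 1.46, 0.587 and 2.13 CPM in spleen. The ear skin count ran from 0 without spleen replicate 1 or without ear skin replicate 1 to 9 without spleen replicate 3, and was a single lower call without spleen replicate 2. The lung count was 1 without spleen replicate 1 or 2 or lung replicate 1 or 2 and 4 without lung replicate 3, the liver count was 5 without spleen replicate 3, and the VAT count was 2 without spleen replicate 3 or VAT replicate 4. Receptor genes summed to 920.9 to 1829 CPM in PBS-labelled ear skin, against 255.8 to 778.4 CPM in PBS-labelled spleen, and their part in the ear skin calls was not tested.

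Cell cycle lists were higher in the same tissues. Of the 25 S phase genes 16 were higher in lung, 15 in liver, 15 in ear skin and 4 in VAT than in spleen, with none lower, and of the 18 mitosis genes 13, 16, 12 and 2 were higher in the same order. Mki67 rose by 2.50 in lung (SE 0.50, adjusted p = 0.000441) and by 2.80 in liver (SE 0.50, adjusted p = 0.000124), and Slbp by 0.87 in lung (SE 0.20, adjusted p = 0.00185) and by 0.69 in liver (SE 0.20, adjusted p = 0.0134). The S phase sum of 3120 ± 684.4 CPM in PBS-labelled liver and 1573 ± 284.5 CPM in PBS-labelled spleen compares with 7112 ± 246.1 CPM in D5 P1. H4c9, the highest member in D5 P1, had 16.3, 37.0 and 13.025 CPM in PBS-labelled liver, against 9.86, 9.20 and 13.5 CPM in PBS-labelled spleen, with overlapping values and no call.

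No tested member passed the test between DT-labelled and PBS-labelled Treg cells of the same tissue. The filter kept 16 members in lung, 15 in liver, 12 in ear skin, 13 in VAT and 14 in spleen, and edgeR and DESeq2 called none of them. At an unadjusted p under 0.05 there was 1 member in ear skin, H2bc11 (-1.40, SE 0.61, adjusted p = 0.48), 1 in VAT, H1f2 (-0.67, SE 0.29, adjusted p = 0.605), and none in lung, liver or spleen. Of all genes 0.411% were called in ear skin, 0.124% in VAT and 0.00% in lung, liver and spleen. H1f2 had 6.90, 11.4, 7.43 and 15.4 CPM in DT-labelled VAT, against 16.8, 19.0, 16.3 and 15.1 CPM in PBS-labelled VAT, with 1 DT-labelled library inside the PBS-labelled range. Median log2 fold changes of the tested members were -0.29 in lung, -0.34 in liver, -0.43 in ear skin, 0.21 in VAT and -0.07 in spleen, and all gene medians lay within 0.02 of 0. The summed level was 134.5 ± 13.3 CPM in DT-labelled and 158.9 ± 43.8 CPM in PBS-labelled lung, 177.6 ± 11.5 and 214.6 ± 46.5 CPM in liver, 105.7 ± 13.5 and 142.5 ± 50.5 CPM in ear skin, 120.2 ± 57.5 and 120.5 ± 71.4 CPM in VAT, and 75.4 ± 9.10 and 92.5 ± 15.9 CPM in spleen. A call that misses the threshold does not show that the arms are alike.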

How the data were processed

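The authors deposited 1 table of raw read counts per gene for 50 libraries of polyadenylated RNA; per the submitters' processing notes the tools were STAR 2.7.3a and featureCounts with build mm10, and the sources used here do not give the annotation, the strand setting or the treatment of multi-mapped reads. Members and lists were chosen with earlier results of these data known. Counts were tested with edgeR 4.0.16 in R 4.3.3 (quasi-likelihood F test, two-sided, TMM factors, filterByExpr with a minimum count of 10 and total of 15, Benjamini-Hochberg adjustment over all genes tested, threshold 0.05). The 18 thymic libraries were fitted together, as were the 32 peripheral libraries; DT-labelled and PBS-labelled libraries were compared within a tissue. The pipeline was tested on simulated data. Alternatives were DESeq2 1.42.0, RLE size factors, no filter, a replicate block, the compared libraries alone, a receptor gene covariate, and libraries left out. Levels are TMM CPM over all libraries.

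Members given with full values were called members with a mean of at least 10 CPM and separate groups, the 6 with the highest mean level and the highest of each histone type; others named were chosen after their values were seen. List genes given were up to 4 per list by adjusted p in D49 P2 against D5 P2, and Slbp, Npat, H1f0, H2ax, H2az1, H3f3a, H3f3b and Mki67. Stem-loops and 50-base windows were read from GENCODE transcripts and promoters from RefSeq. A count of 0 allows up to 3 counts; intervals and floors cover counting error only. No 2 replicates differed by less than sampling noise. Same-numbered libraries did not deviate together in every pair of any comparison (correlation over 0.1), so replicate numbers were not used as pairs.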

Additional observations from a re-analysis of the deposited data

Results flagged for a closer look

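In the 4 PBS-labelled VAT libraries, 1 library stood far above the others in H1f4, which had 3.68, 5.05, 5.07 and 27.9 CPM, a gap of 0.942 of the whole range. The summed H1 genes of the same group were 22.6, 23.8, 26.0 and 58.1 CPM, with a gap of 0.906 of the range, and hold H1f4. H2ac11 had 0, 0.207, 0.211 and 1.51 CPM there, with a gap of 0.860 of the range, in another library than that of H1f4. These 3 came from 34 such tests over the DT-labelled and PBS-labelled VAT groups, and chance flags about 1 in 20 groups.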

How the results depend on the processing

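Counts below are members called, with the reported count first. DESeq2 called 11 for 6 in D12 P1 against D5 P1, 8 for 4 in D12 P2 against D5 P2, 6 for 2 in lung against spleen and 5 for 3 in ear skin against spleen. Of all genes it called 2909, 1118, 3375 and 4669 there, against 2689, 759, 2825 and 4195 in the reported fits. With no filter on low counts there were 6 for 10 in D49 P1 against D12 P1, 1 for 5 in D5 P2 against P1, 3 for 9 in D12 P2 against P1, 5 for 2 in liver and 1 for 3 in ear skin. All genes called were then 3868, 1894 and 6259 of 46017 in thymus, against 3486, 2232 and 6085 of 14696. In liver and ear skin they were 2539 and 3846 of 49822, against 3014 and 4195 of 17731. A fit of the compared libraries alone gave 16 for D12 P1 against D5 P1, 11 for D12 P2 against D5 P2, 0 for 8 in D49 P2 against D12 P2, 10 for 23 in D49 P2 against D5 P2, 12 for D5 P2 against P1, 0 for 11 in D49 P2 against P1, 1 in lung and 1 in ear skin. Genes called moved too, to 3396 of 12596, 1819 of 11762, 83 of 11770, 1099 of 11705, 4066 of 11870 and 1210 of 11708 in thymus. The reported thymic fits called 2689, 759, 2202, 3788, 2232 and 4341 of 14696. In lung and ear skin 1261 of 12370 and 2296 of 12486 were called. The replicate block gave 11, 9, 0, 6, 11 and 0 in the same 6 thymic comparisons, in that order, 1 in lung, 0 in ear skin and 0 for 1 in VAT. Of all genes it called 3012, 1649, 57, 751, 4076 and 960 in thymus. In lung, ear skin and VAT it called 885 of 12370, 2256 of 12486 and 1321 of 12692. Replicate numbers were not shown to pair libraries; in ear skin against spleen every library correlated best with its own number, as a hint from the data only. These fits hold fewer libraries and, for D49 P2, test as few as 7 members.

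The receptor covariate gave 0 in D12 P1 against D5 P1, D49 P1 against D12 P1, D49 P2 against D12 P2 and D12 P2 against P1, 6 in D49 P2 against D5 P2 and 1 in D49 P2 against P1. With it H2bc21 reversed in D49 P2 against D5 P2, at -0.10, and the cause was not tested. The receptor sums of D12 P1 and D49 P2 did not overlap those of the groups compared with them here. The covariate can therefore hardly be told apart from the group. Without both D49 P2 replicates 2 and 3, which leaves 1 library in the group, assumed to vary like the others, the counts were 1 against D12 P2 and 2 against D49 P1. DT-labelled libraries gave 1 in lung and 4 in liver.

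Leaving out 1 library at a time gave 3 in every case for D12 P1 against D5 P1, 5 to 10 for D49 P1 against D12 P1, 16 to 19 for D49 P1 against D5 P1, 2 to 3 for D12 P2 against D5 P2, 5 to 9 for D49 P2 against D12 P2, 20 to 24 for D49 P2 against D5 P2, 1 to 2 for D5 P2 against P1, 3 to 9 for D12 P2 against P1, 7 to 10 for D49 P2 against P1, 0 to 1 for the difference between the changes with age, 1 to 4 in lung, 2 to 5 in liver, 0 to 9 in ear skin and 1 to 2 in VAT. Without PBS-labelled spleen replicate 2, the ear skin count reversed to 1 lower member; the cause was not tested. No member was called between DT-labelled and PBS-labelled libraries in any of these fits. Except without D49 P2 replicate 1, every such fit of a thymic comparison of 2 groups called fewer of all genes than the reported fit.

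Values for single named members were tallied under the settings other than leaving out 1 library at a time. Of these values, 179 held direction and call, 57 lost the call and 1 reversed. The settings tallied include the DT-labelled libraries and the fit that leaves 1 library in a group. In the fits that left out 1 library at a time, 173 values held direction and call and 62 lost the call. Levels near 1 CPM rest on a few counts per library, which limits detection, and reads shared by near-identical copies limit calls for single members.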
